A study of Homo sapiens with 6 samples.

Results

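The 44 collagen genes among the 20532 genes of the deposited table were taken by gene name, as every symbol made of COL, a type number, A and a chain number. They were sorted into 11 fibrillar genes (types 1, 2, 3, 5, 11, 24 and 27), 8 basement membrane genes (types 4, 15 and 18) and 25 others. The values compared 3 libraries from ACHN cells given a lentiviral short hairpin RNA against DNAJC2 (shDNAJC2 1, 2 and 3) with 3 libraries from ACHN cells given a negative control hairpin by the same route (shCtrl 1, 2 and 3). ACHN is a human kidney carcinoma line, which the labels assign to clear cell renal cell carcinoma, and both groups therefore carried a lentiviral hairpin. The study's design text describes 1 stable line per hairpin with biological replicates, without naming separate cultures or transductions, and the p-values below therefore cover only library-to-library spread. The stated interest was in metabolism and ferroptosis, and the collagen comparison asked how the genes of the extracellular scaffold differed between the groups.

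Collagens are secreted or membrane-anchored proteins whose chains wind around each other along repeats with glycine at regular places. Fibrillar collagens are cut at both ends after secretion and pack into the banded fibres of connective tissue, with types I, III and V mixed in the same fibre. Type IV forms the open sheet of basement membranes, under epithelia and around kidney tubules and glomeruli, where types XV and XVIII are also found. The other classes decorate fibres (the fibril-associated types IX, XII, XIV and XVI), form beaded filaments (type VI), anchor the epidermis (type VII) or span the cell membrane (types XIII and XVII).

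The genes within a head-to-head pair of type IV genes lie back to back, and the results below are given by pair. The sequences around transcript starts are therefore shown first for both such pairs that were expressed. Those of COL5A1 and COL11A1 stand beside them as examples of fibrillar genes that were lower in most libraries than in shCtrl 1 and 2. Each window runs 5′ to 3′ on the gene's own strand from 250 bases before the start to 50 bases after it, from RefSeq on GRCh38.p14, and capitals mark CCAAT or GGGCGG on either strand.
COL4A1: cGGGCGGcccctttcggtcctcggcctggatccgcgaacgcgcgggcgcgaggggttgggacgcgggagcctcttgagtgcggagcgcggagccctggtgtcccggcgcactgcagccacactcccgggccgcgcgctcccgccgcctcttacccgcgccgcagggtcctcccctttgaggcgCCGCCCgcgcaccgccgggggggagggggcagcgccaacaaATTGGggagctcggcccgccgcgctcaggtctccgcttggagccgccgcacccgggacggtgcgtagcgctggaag
COL4A2: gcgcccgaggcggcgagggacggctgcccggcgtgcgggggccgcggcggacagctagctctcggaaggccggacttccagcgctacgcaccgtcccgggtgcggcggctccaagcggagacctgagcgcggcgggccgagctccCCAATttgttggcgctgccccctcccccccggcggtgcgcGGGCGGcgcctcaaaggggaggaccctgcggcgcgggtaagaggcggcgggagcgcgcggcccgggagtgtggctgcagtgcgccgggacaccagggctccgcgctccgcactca
COL4A5: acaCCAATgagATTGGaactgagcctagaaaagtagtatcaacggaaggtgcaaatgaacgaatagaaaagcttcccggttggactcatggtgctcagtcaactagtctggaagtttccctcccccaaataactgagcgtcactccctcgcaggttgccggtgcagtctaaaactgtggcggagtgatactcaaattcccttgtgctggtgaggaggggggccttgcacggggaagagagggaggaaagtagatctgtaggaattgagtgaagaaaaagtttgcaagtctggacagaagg
COL4A6: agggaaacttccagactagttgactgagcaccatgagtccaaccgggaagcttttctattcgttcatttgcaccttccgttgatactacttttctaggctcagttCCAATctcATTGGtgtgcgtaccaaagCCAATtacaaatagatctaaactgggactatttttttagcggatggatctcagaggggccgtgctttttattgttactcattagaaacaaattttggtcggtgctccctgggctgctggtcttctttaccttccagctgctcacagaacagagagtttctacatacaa
COL5A1: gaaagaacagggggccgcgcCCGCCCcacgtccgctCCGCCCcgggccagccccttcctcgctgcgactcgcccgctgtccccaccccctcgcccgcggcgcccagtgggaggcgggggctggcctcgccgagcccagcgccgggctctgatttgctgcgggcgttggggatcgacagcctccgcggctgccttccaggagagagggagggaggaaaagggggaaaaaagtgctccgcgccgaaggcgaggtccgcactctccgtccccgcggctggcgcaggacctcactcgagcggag
COL11A1: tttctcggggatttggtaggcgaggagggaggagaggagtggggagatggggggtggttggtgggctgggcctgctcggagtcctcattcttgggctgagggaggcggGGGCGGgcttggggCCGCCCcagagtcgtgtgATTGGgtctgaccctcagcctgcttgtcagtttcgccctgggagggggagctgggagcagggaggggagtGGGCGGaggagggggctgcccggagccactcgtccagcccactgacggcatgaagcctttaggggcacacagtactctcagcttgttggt
The windows of COL4A1 (chr13:110307108-110307407, minus strand) and COL4A2 (chr13:110307034-110307333, plus strand) share 226 bases, and their starts lie 127 bases apart. Those of COL4A5 (chrX:108439588-108439887, plus strand) and COL4A6 (chrX:108439409-108439708, minus strand) share 121 bases, with starts 380 bases apart. The window of COL5A1 is chr9:134641553-134641852 on the plus strand, and that of COL11A1 is chr1:103108473-103108772 on the minus strand. A single CCAAT, read on opposite strands, stands in the shared stretch of COL4A1 and COL4A2, 105 bases before the start of COL4A2 counted from its first letter. The COL4A5 and COL4A6 windows hold 2 and 3 CCAAT matches and no GGGCGG. Windows were matched by symbol for 32 of the 44 collagen genes, all but COL1A1, COL1A2, COL2A1, COL3A1, COL5A2, COL6A1, COL6A5, COL8A1, COL9A3, COL14A1, COL20A1 and COL22A1. Of these 32, 10 held CCAAT, 18 held GGGCGG and 5 held TATAAA on either strand, against 34.6%, 45% and 11.5% of all 35116 windows of that length. In no collagen window did matches of different motifs overlap. A match describes these letters and is not evidence of binding.

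Before the collagens, the libraries themselves had to be placed. Total counts were 17491462 to 24308609 in shDNAJC2 libraries and 22687843 to 25760291 in shCtrl libraries, and 3 counts, the most that a count of 0 allows, came to 0.115 to 0.179 CPM (counts scaled to library size with TMM factors). DNAJC2, a ribosome-associated co-chaperone and the target of the hairpin, was at 51.2, 50.4 and 38.5 CPM in shDNAJC2 1, 2 and 3, against 76.7, 69.8 and 86.5 CPM in shCtrl 1, 2 and 3. The target was thus lower in each knockdown library, and shCtrl 3 had a control level of it. Over all 13988 genes tested, however, more than 2-fold differences numbered 78 between shDNAJC2 2 and shCtrl 3 and 2080 between shCtrl 1 and shCtrl 3. Between shDNAJC2 3 and shCtrl 3 they numbered 571, and between shDNAJC2 1 and shDNAJC2 3 they numbered 547. On the first principal component, with 79.4% of the variance, shDNAJC2 1 and 2 lay at 34.3 and 34.6 and shDNAJC2 3 at −1.40, against −52.6 and −51.0 for shCtrl 1 and 2 and 36.1 for shCtrl 3, so shDNAJC2 3 also stood apart from its group. Fold changes of collagens are therefore given with and without shCtrl 3, a library singled out after its values were known. Without it the control spread rests on shCtrl 1 and 2, which differed more than 2-fold for 48 genes. Adjusted p from fits without shCtrl 3 are therefore too small to be taken at face value, and they describe those fits only. Among the markers of renal epithelium, PAX2, CDH16 and LHX1 had at most 4 counts in any library, and PAX8 was at 2.82 to 4.22 CPM in shDNAJC2 and 2.98 to 4.64 CPM in shCtrl libraries. KRT18, an epithelial keratin, was at 67.5 to 80.1 CPM in shDNAJC2 and 66.5 to 89.8 CPM in shCtrl libraries. KRT8 was at 30.9 to 35.4 CPM in shDNAJC2 and 34.1 to 41.7 CPM in shCtrl libraries, and MET at 26.1 to 35.0 CPM in shDNAJC2 and 21.95 to 35.3 CPM in shCtrl libraries. In all, 8 of 11 renal markers averaged at least 1 CPM, and the list summed to 144 to 171 CPM in shDNAJC2 and 140 to 192 CPM in shCtrl libraries. Of 10 fibroblast markers 8 also averaged at least 1 CPM, with a sum of 622 to 662 CPM in shDNAJC2 and 690 to 738 CPM in shCtrl libraries, and of that list DPT and MFAP5 were at 0. KRT7, KRT19, FBLN1 and PDGFRB were lower in every knockdown library than in every control, a pattern that 8.43% of all genes tested had. KRT19 was at 0.875 to 1.51 CPM in shDNAJC2 and 2.18 to 2.43 CPM in shCtrl libraries. CA9 was at 0.861 and 1.30 CPM in shCtrl 1 and 2, against 8.83 CPM in shCtrl 3 and 7.68 to 8.56 CPM in shDNAJC2 libraries. The other tested markers of both lists had overlapping groups. EPCAM was at 1.08 to 1.43 CPM in shDNAJC2 and 0.840 to 1.42 CPM in shCtrl libraries. PDPN, of the fibroblast list, was at 1.02 to 1.20 CPM in shDNAJC2 and 0.878 to 1.64 CPM in shCtrl libraries. Most markers of both lists thus averaged at least 1 CPM, some only just, and a few of each were at or near 0. The part of these markers in the collagen results was not tested. Endothelial markers summed to 56.5 to 58.1 CPM in shDNAJC2 and 58.1 to 73.0 CPM in shCtrl libraries, nearly all from TEK. In the blood and immune list only CD68 averaged 1 CPM or more, and that list summed to 71.1 to 80.5 CPM in shDNAJC2 and 79.8 to 92.5 CPM in shCtrl libraries.

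Collagen transcripts made up 0.895%, 0.965% and 1.09% of counts in shDNAJC2 1, 2 and 3, against 1.48%, 1.47% and 1.11% in shCtrl 1, 2 and 3. The fibrillar genes carried most of the difference from shCtrl 1 and 2. Their summed level was 1072, 1106 and 1774 CPM in shDNAJC2 1, 2 and 3, against 4583, 4588 and 1208 CPM in shCtrl 1, 2 and 3. So shCtrl 3 lay among the knockdown libraries, below their mean of 1317 CPM, and the groups overlapped. The difference of the knockdown mean from shCtrl 3 came from the basement membrane and other genes. Basement membrane genes summed to 1729, 1922 and 1917 CPM in shDNAJC2 libraries, against 2103, 2187 and 2327 CPM in shCtrl libraries. Here every knockdown library lay below every control, by a small margin. The other genes summed to 6490, 7062 and 6875 CPM in shDNAJC2 libraries, against 7082, 7210 and 8389 CPM in shCtrl libraries, where shCtrl 3 was the highest library and the groups again did not overlap. In bulk RNA, fewer cells that make a collagen and less collagen RNA per cell cannot be told apart.

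**Figure D1:**
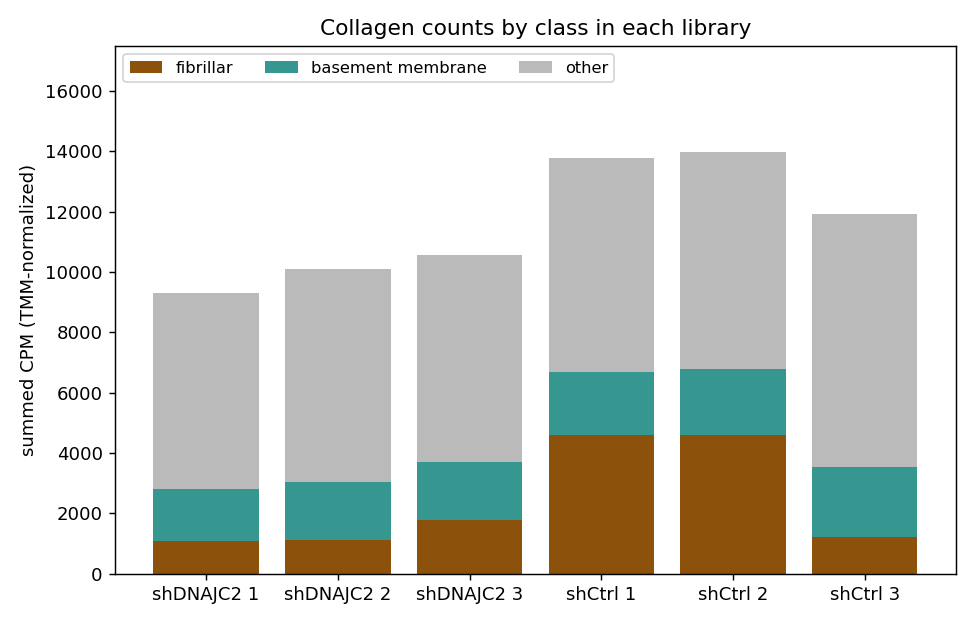
Summed CPM (TMM-normalized, y axis) of the 11 fibrillar, 8 basement membrane and 25 other collagen genes, stacked for each of the 6 libraries (x axis). The fibrillar part is 4583 and 4588 CPM in shCtrl 1 and 2 and 1072 to 1774 CPM in the other 4 libraries.

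Of the 44 genes, 31 passed the filter on low counts over all 6 libraries, 10 of them fibrillar, 7 of basement membranes and 14 others. None was called by edgeR's quasi-likelihood test after adjustment over all genes, and neither was any other gene (percentage called 0 in each direction, smallest adjusted p 0.43). At an unadjusted p under 0.05, edgeR had 12 of the 31 lower and 1 higher, against 7.33% of all genes lower and 4% higher (1026 and 559 genes). Log2 fold changes were below 0 for 23 of the 31, against 52.3% of all genes, and without shCtrl 3 for 23 of 32, against 51.2%. DESeq2 called 1 collagen, COL18A1 (lower, adjusted p = 0.0464), against 0.207% of all genes lower and 0.0429% higher. It gave no adjusted p to COL15A1 (mean 9.28 CPM) or to any tested collagen of lower level, so these could not be called. Among them, COL9A2 and COL14A1 had unadjusted DESeq2 p of 5.5e-04 and 0.0014. Limma-voom called none (0% of all genes, with 1473 genes, or 10.5%, at an unadjusted p under 0.05). The median log2 fold change was −1.10 for fibrillar, −0.25 for basement membrane and −0.24 for other tested genes, against −0.02 for all genes tested. Without shCtrl 3, edgeR called 15 of 32 tested collagens lower and 2 higher, against 17% and 17.8% of all genes. The 15 were 8 of 10 fibrillar genes, 3 of 7 basement membrane genes and 4 of 15 others. Medians in that fit were −1.40, −0.16 and −0.19 for the same classes, against −0.01 for all genes. Leaving out shDNAJC2 3 as well gave 18 collagens lower and 5 higher of 30, against 31.1% and 30.8% of all genes, in a comparison of 2 libraries with 2. The gene added in the fit without shCtrl 3 was COL21A1, which had 7 to 15 counts in shDNAJC2 and 7 to 9 counts in shCtrl libraries.

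**Figure D2:**
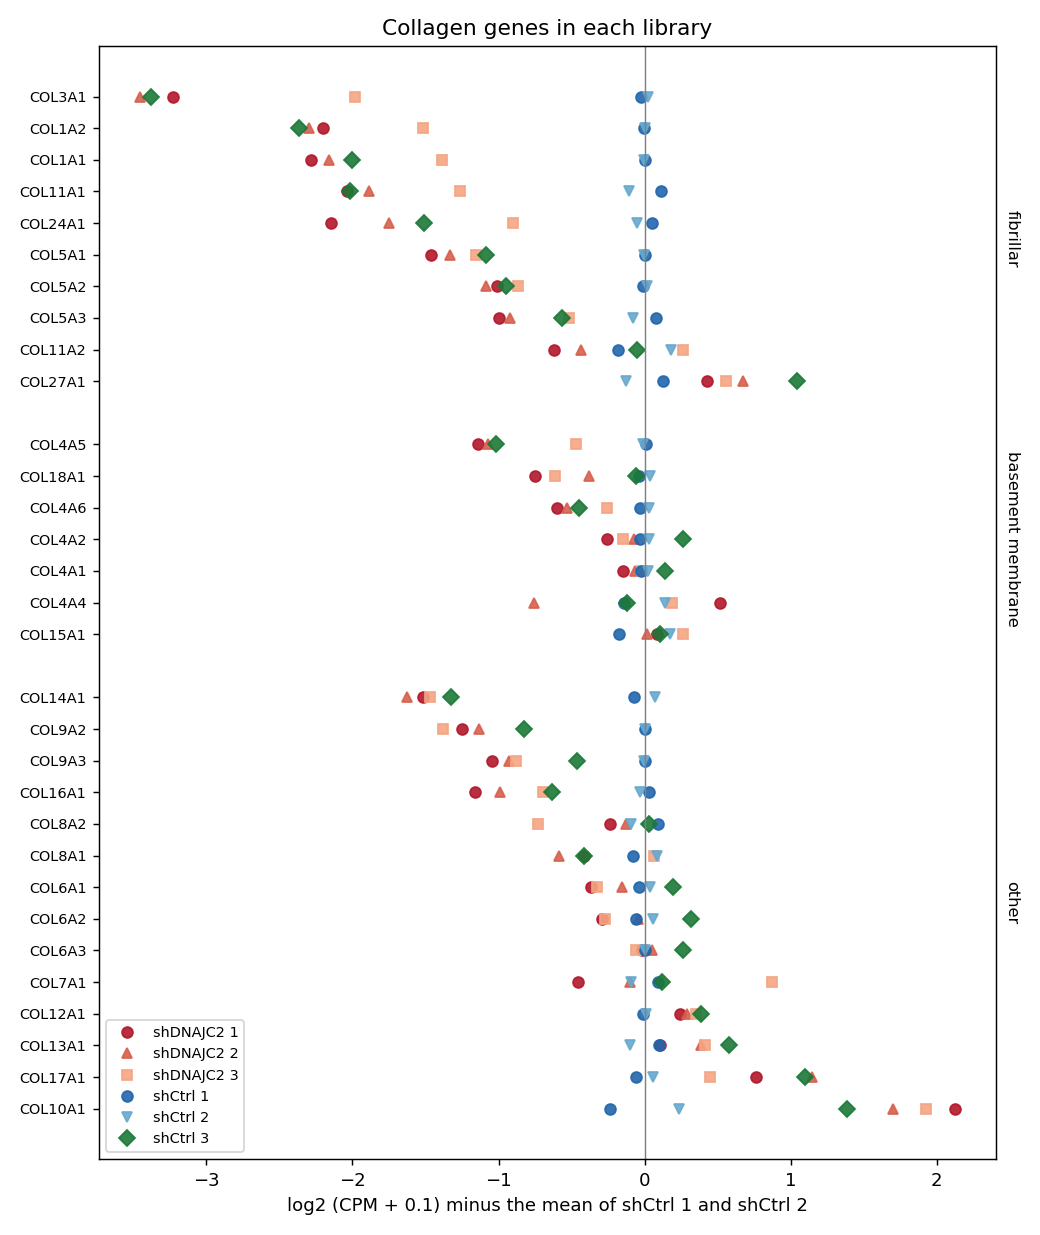
Each row is 1 of the 31 tested collagen genes, grouped by class. The x axis is log2 (CPM + 0.1) minus the mean of shCtrl 1 and shCtrl 2, with 1 symbol per library. For COL1A1, COL1A2 and COL3A1, shCtrl 3 sits with shDNAJC2 1 and 2, far left of the other controls, while for COL18A1 it sits with shCtrl 1 and 2.

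Type I collagen, the main protein of tendon, bone and scar, is built from the products of COL1A1 (chr17:50183289-50201632, GRCh38) and COL1A2 (chr7:94394561-94431232). COL1A1 was at 572, 623 and 1066 CPM in shDNAJC2 1, 2 and 3, against 2795, 2784 and 695 CPM in shCtrl 1, 2 and 3. COL1A2 was at 183, 172 and 294 CPM in the knockdown libraries, against 843, 843 and 163 CPM in the controls. For both genes shCtrl 3 was close to shDNAJC2 1 and 2, and shDNAJC2 3 stood above them but below shCtrl 1 and 2. Log2 fold changes were −1.47 for COL1A1 (95% interval −2.75 to −0.20) and −1.51 for COL1A2 (−2.91 to −0.11). Without shCtrl 3 both fell, by 1.88 (adjusted p = 9.1e-04) and 1.96 (adjusted p = 4.4e-04) on the log2 scale.

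Per kilobase of transcript, COL1A1 was the most abundant collagen mRNA in shCtrl 1 and 2, at 416 and 414 CPM per kb. It ranked 6, 5 and 4 among the collagens in shDNAJC2 1, 2 and 3 and 6 in shCtrl 3, with levels of 85.0, 92.6 and 158 CPM per kb in the knockdown libraries and 103 CPM per kb in shCtrl 3. In those 4 libraries the type VI gene COL6A3 came first. The ratio of COL1A1 to COL1A2 per kilobase was 2.78, 3.23 and 3.23 in shDNAJC2 1, 2 and 3, against 2.96, 2.94 and 3.80 in shCtrl 1, 2 and 3. The chains of type I thus moved together, and the ratio varied less between libraries than either level.

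Type III collagen, from COL3A1 (chr2:188974320-189012746), is found in vessel walls and other stretchable tissue. COL3A1 had the most negative fold change of the tested collagens, at 40.1, 34.3 and 95.4 CPM in shDNAJC2 1, 2 and 3, against 371, 384 and 36.1 CPM in shCtrl 1, 2 and 3. Its level in shCtrl 3 was 9.58% of the mean of the other 2 controls, although both carried the same hairpin. The log2 fold change was −2.22 with an interval of −4.22 to −0.21, and without shCtrl 3 it was −2.72 (adjusted p = 0.0010). Relative to COL1A1 per kilobase, COL3A1 was at 0.0852, 0.0668 and 0.109 in the knockdown libraries, against 0.161, 0.167 and 0.0631 in the controls. This ratio was lower in the 3 knockdown libraries and shCtrl 3 than in shCtrl 1 and 2.

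Type V collagen starts and limits the growth of type I fibres. COL5A1 (chr9:134641774-134844843) was at 45.5, 49.9 and 56.4 CPM in shDNAJC2 1, 2 and 3, against 126, 125 and 59.1 CPM in shCtrl 1, 2 and 3. It was the only tested fibrillar gene whose groups did not overlap, with shCtrl 3 just above the highest knockdown library, and its log2 fold change was −1.03 (interval −1.72 to −0.35). COL5A2 (chr2:189031896-189225312), which lies tail to tail with COL3A1 at a distance of 19149 bases, was at 203, 193 and 225 CPM in shDNAJC2 libraries, against 406, 414 and 212 CPM in shCtrl libraries, a log2 fold change of −0.73. The third gene of the type, COL5A3, was at 3.91, 4.13 and 5.49 CPM in shDNAJC2 libraries and at 8.36, 7.48 and 5.31 CPM in shCtrl libraries, a log2 fold change of −0.64. Without shCtrl 3 the 3 genes fell by 1.31, 0.98 and 0.80, with adjusted p of 1.6e-04, 4.4e-04 and 0.014. Since COL5A2 changed less than COL1A1, its ratio to COL1A1 per kilobase was 0.337, 0.294 and 0.200 in the knockdown libraries, against 0.138, 0.141 and 0.289 in the controls. shCtrl 3 again stood with the knockdown libraries, and shDNAJC2 3 was the lowest of them.

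Of the minor fibrillar genes, COL11A1 and COL24A1 were expressed at low levels and were highest in shCtrl 1 and 2. COL11A1, known from cartilage, ranged over 2.14 to 3.74 CPM in shDNAJC2 and 2.18 to 9.84 CPM in shCtrl libraries, and COL24A1 over 1.20 to 2.98 CPM and 1.92 to 5.86 CPM. Over all 6 libraries their log2 fold changes were −1.30 (interval −2.60 to 0.0081) and −1.17 (−2.39 to 0.039), and both intervals included 0. Without shCtrl 3 both fell, with log2 fold changes of −1.70 and −1.50. COL27A1 went the other way. COL27A1 stood at 20.4, 24.2 and 22.4 CPM in shDNAJC2 1, 2 and 3, against 16.6, 13.9 and 31.3 CPM in shCtrl 1, 2 and 3, with a log2 fold change of 0.12 over all libraries and of 0.56 without shCtrl 3 (adjusted p = 0.016). In this case shCtrl 3 was higher than every knockdown library. COL11A2 ranged over 1.10 to 2.11 CPM in shDNAJC2 and 1.52 to 1.99 CPM in shCtrl libraries (log2 fold change −0.20 with and without shCtrl 3), and the cartilage gene COL2A1 had at most 9 counts in any library.

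**Figure D3:**
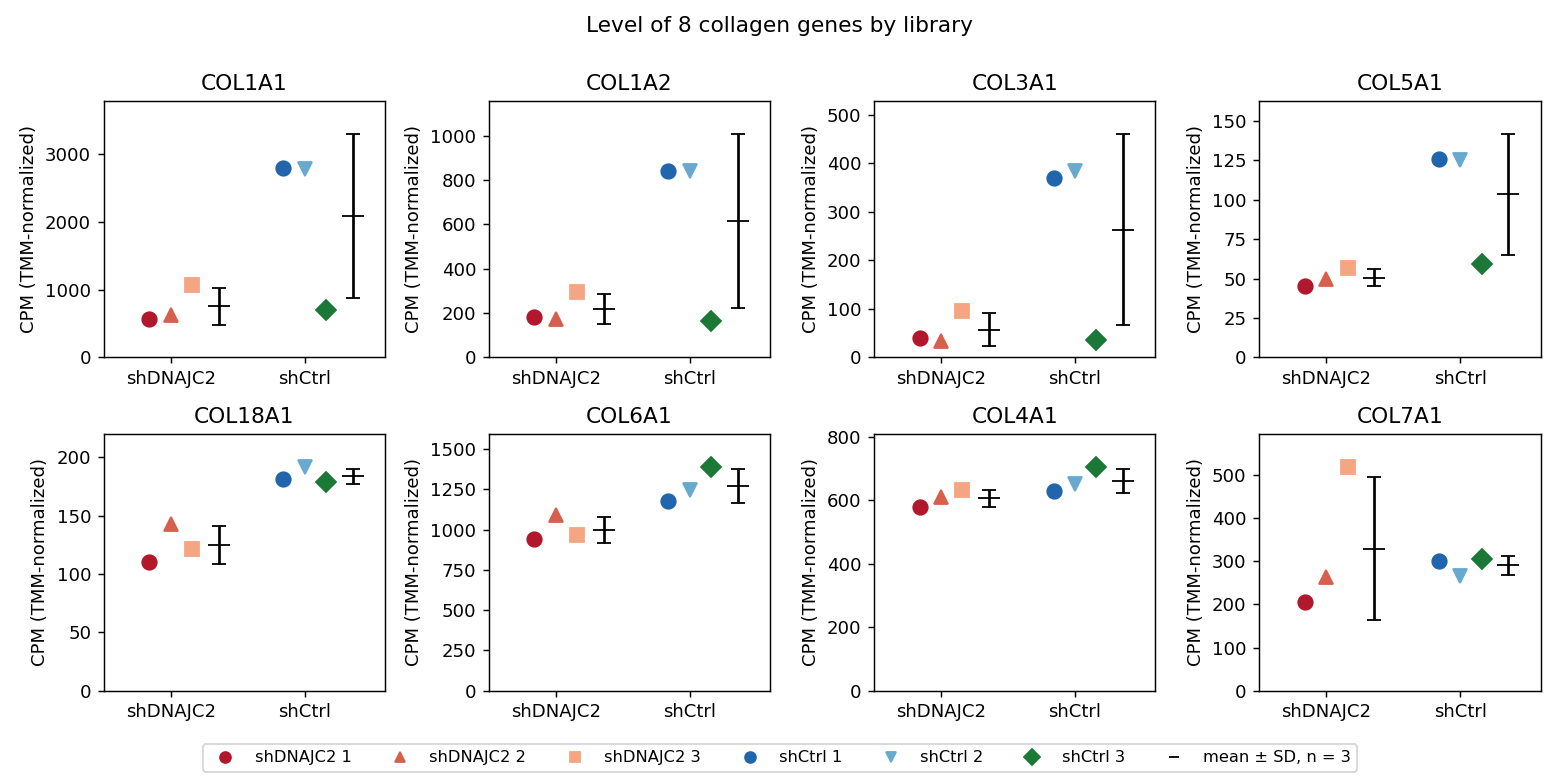
CPM (TMM-normalized, y axis from 0) of 8 collagen genes in shDNAJC2 and shCtrl libraries (x axis), 1 symbol per library, with the mean and SD of each group (n = 3). COL1A1, COL1A2 and COL3A1 show shCtrl 3 (diamond) among the knockdown libraries, COL18A1 shows it among the controls, and COL7A1 shows shDNAJC2 3 (square) apart at 517 CPM.

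The type IV gene pairs differed from each other mainly when set against shCtrl 1 and 2. Over all 6 libraries the intervals of COL4A1, COL4A2, COL4A5 and COL4A6 all included 0. COL4A2 and COL4A6, from different pairs, then had similar log2 fold changes (−0.25 and −0.32). COL4A1 and COL4A2, whose chains form the network of nearly all basement membranes, differed little between the groups. COL4A1 (chr13:110148963-110307233) was at 578, 610 and 631 CPM in shDNAJC2 1, 2 and 3, against 628, 650 and 703 CPM in shCtrl 1, 2 and 3. COL4A2 (chr13:110305812-110513209) was at 903, 1025 and 974 CPM in shDNAJC2 libraries, against 1056, 1103 and 1293 CPM in shCtrl libraries. Both genes thus had narrow ranges. The groups overlapped by 1 library for COL4A1 and did not for COL4A2, and shCtrl 3 was the highest library for both. Their log2 fold changes were −0.12 (interval −0.40 to 0.15) and −0.25 (−0.58 to 0.08), and without shCtrl 3 they were −0.07 and −0.16 (adjusted p = 0.62 and 0.32).

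COL4A5 and COL4A6 lie head to head on the X chromosome, 346 bases apart. COL4A5 belongs to the network of the kidney glomerulus, and COL4A6 pairs with it in other basement membranes, including those of smooth muscle. COL4A5 (chrX:108439844-108697545) was at 51.2, 53.8 and 81.7 CPM in shDNAJC2 1, 2 and 3, against 114, 112 and 55.8 CPM in shCtrl 1, 2 and 3. COL4A6 (chrX:108155607-108439497) was at 77.8, 81.7 and 98.4 CPM in the knockdown libraries, against 116, 120 and 86.3 CPM in the controls. In both genes shCtrl 3 lay between shDNAJC2 2 and shDNAJC2 3, and shCtrl 1 and 2 were the highest. Over all libraries the log2 fold changes were −0.59 (interval −1.33 to 0.15) and −0.32 (−0.70 to 0.06), and without shCtrl 3 the pair fell by 0.85 (adjusted p = 0.0084) and 0.45 (adjusted p = 0.018).

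Chain ratios set these pairs side by side. COL4A2 to COL4A1 per kilobase was 1.59, 1.71 and 1.57 in shDNAJC2 libraries, against 1.71, 1.73 and 1.87 in shCtrl libraries. COL4A6 to COL4A5 was 1.46, 1.46 and 1.16 in shDNAJC2 libraries, against 0.977, 1.03 and 1.49 in shCtrl libraries, so COL4A5 differed more than its neighbour. COL4A5 to COL4A1 was 0.0905, 0.0899 and 0.132 in the knockdown libraries, against 0.185, 0.176 and 0.0809 in the controls. These are descriptions of the libraries and were not tested. The last head-to-head pair, COL4A3 and COL4A4, which completes the glomerular network, was nearly silent. COL4A3 had at most 5 counts in any library and was not tested, and COL4A4 ranged over 0.179 to 0.574 CPM in shDNAJC2 and 0.328 to 0.420 CPM in shCtrl libraries (log2 fold change 0.16, or 0.12 without shCtrl 3).

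COL18A1 (chr21:45405137-45513720), whose product carries the fragment endostatin at its end, differed in another way. COL18A1 stood at 110, 143 and 122 CPM in shDNAJC2 1, 2 and 3, against 181, 191 and 179 CPM in shCtrl 1, 2 and 3. The 3 controls lay together and above every knockdown library, so that shCtrl 3 matched its label. Knockdown libraries averaged 125 ± 16.4 CPM and controls 184 ± 6.66 CPM (SD, n = 3 each), and the log2 fold change was −0.56 (interval −0.85 to −0.27). COL18A1 ranked 23 by p among 13988 genes in edgeR (unadjusted p = 0.0028, adjusted p = 0.43). Of the collagens to which DESeq2 gave an adjusted p, it was the one called. Without shCtrl 3 it fell by 0.57 (adjusted p = 0.0078). Its GC content is 67.2%, and with the GC trend of each library removed the log2 fold change was −0.27. COL18A1 also shares 1401 exonic bases with SLC19A1 on the opposite strand, at 74.7, 87.8 and 72.9 CPM in shDNAJC2 libraries and 77.1, 82.0 and 112 CPM in shCtrl libraries, and with the strand setting unstated the reads of the shared stretch could not be assigned. COL15A1, its relative, was at 9.29, 8.85 and 10.5 CPM in shDNAJC2 libraries and 7.75, 9.89 and 9.41 CPM in shCtrl libraries, with overlapping groups and a log2 difference of 0.08 (interval −0.30 to 0.47), or 0.12 without shCtrl 3.

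**Figure D4:**
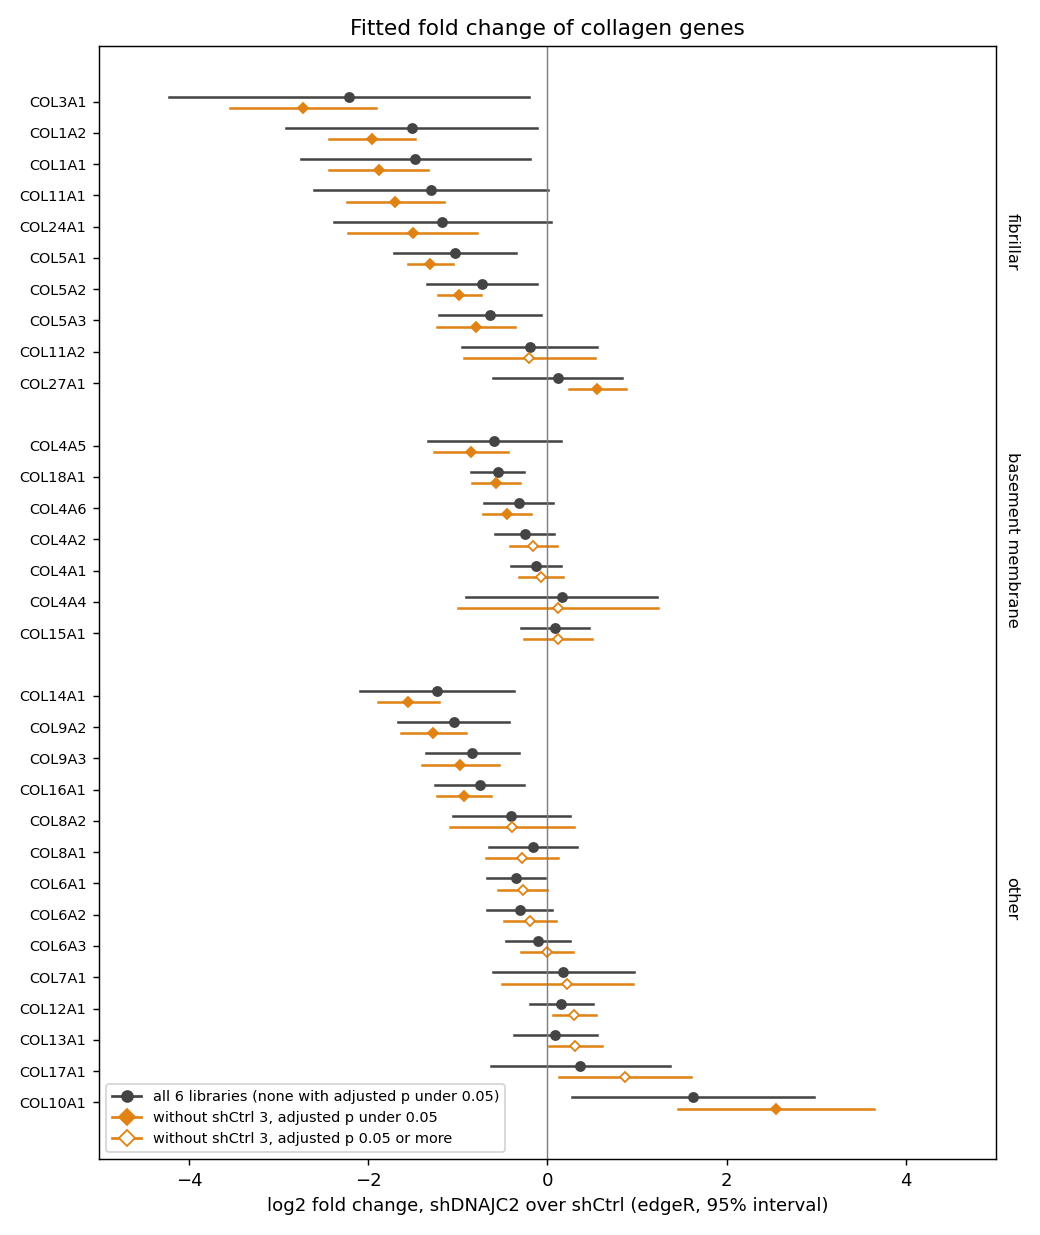
Log2 fold change of shDNAJC2 over shCtrl (x axis, edgeR, bars are 95% intervals) for the 31 tested collagen genes by class, over all 6 libraries (circles) and without shCtrl 3 (diamonds, filled where the adjusted p is under 0.05). None passes over all 6 libraries, and intervals are narrower without shCtrl 3 for the fibrillar genes from COL3A1 to COL5A3.

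Among the other collagens the type VI genes were the most abundant. Their products assemble into beaded filaments that link cells to the fibres around them. COL6A1 (chr21:45981737-46005050) was at 941, 1090 and 968 CPM in shDNAJC2 1, 2 and 3, against 1179, 1244 and 1387 CPM in shCtrl 1, 2 and 3. COL6A2 (chr21:46098097-46132849), which follows COL6A1 on the same strand after 93046 bases, was at 888, 1053 and 903 CPM in shDNAJC2 libraries, against 1044, 1131 and 1354 CPM in shCtrl libraries. COL6A3 (chr2:237324003-237414375) was at 3618, 3795 and 3518 CPM in shDNAJC2 libraries, against 3669, 3667 and 4392 CPM in shCtrl libraries. For all 3 genes shCtrl 3 was the highest library, away from the knockdown libraries, and the groups did not overlap for COL6A1. Log2 fold changes were −0.35 (interval −0.67 to −0.02), −0.31 (−0.68 to 0.06) and −0.10 (−0.46 to 0.25). None of the 3 passed in the fit that leaves out shCtrl 3, with values of −0.27, −0.19 and −0.0054. With GC contents of 63.5%, 66.4% and 53.2%, they came to −0.09, −0.02 and −0.03 once the GC trend was removed. The ratio of COL6A1 to COL6A2 per kilobase was 0.865, 0.845 and 0.875 in the knockdown libraries, against 0.923, 0.898 and 0.837 in the controls. COL6A6 had at most 2 counts, and COL6A5 had 0 counts in every library.

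Of 10 fibril-associated genes 5 were tested, and 4 of these were lower in every knockdown library than in every control, a pattern that 8.43% of all genes tested had. COL14A1 was at 4.85, 4.49 and 5.01 CPM in shDNAJC2 1, 2 and 3, against 13.4, 14.8 and 5.56 CPM in shCtrl 1, 2 and 3 (log2 fold change −1.23). COL16A1 was at 78.2, 88.1 and 108 CPM in shDNAJC2 libraries, against 179, 171 and 113 CPM in shCtrl libraries (−0.75). In these genes shCtrl 3 stood just above the highest knockdown library. The type IX genes, whose product coats cartilage fibres, behaved likewise at lower levels. COL9A2 was at 4.17, 4.54 and 3.82 CPM in shDNAJC2 libraries, against 10.1, 10.1 and 5.65 CPM in shCtrl libraries (−1.04), and COL9A3 at 2.09, 2.27 and 2.35 CPM in shDNAJC2 libraries, against 4.43, 4.39 and 3.18 CPM in shCtrl libraries (−0.84). Here shCtrl 3 lay between the knockdown libraries and the other controls. Without shCtrl 3 the 4 genes fell by 1.55, 0.93, 1.27 and 0.97, with adjusted p of 2.7e-04, 0.0015, 8.4e-04 and 0.0058. Of the other fibril-associated genes COL12A1 (chr6:75084326-75206051) was the abundant one, at 593, 613 and 642 CPM in shDNAJC2 libraries, against 498, 505 and 655 CPM in shCtrl libraries, with overlapping groups and a fold change of 0.16 (log2, interval −0.20 to 0.51). Without shCtrl 3 it was 0.30 (adjusted p = 0.054). COL19A1, COL20A1, COL21A1 and COL22A1 had at most 15 counts in any library, and COL9A1 had 0.

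COL7A1 (chr3:48564073-48595267), which encodes the anchoring fibril of skin, was set apart by shDNAJC2 3. COL7A1 stood at 206, 263 and 517 CPM in shDNAJC2 1, 2 and 3, against 301, 265 and 306 CPM in shCtrl 1, 2 and 3. The log2 fold change was 0.18 (interval −0.60 to 0.96) and 0.22 without shCtrl 3. Without shDNAJC2 3 it was −0.29 (adjusted p = 0.36), and without both libraries it was −0.26, past the threshold in the opposite direction (adjusted p = 0.018). COL8A1, of the network-forming type VIII, was at 117, 104 and 164 CPM in shDNAJC2 libraries, against 148, 166 and 117 CPM in shCtrl libraries, a log2 fold change of −0.16, or −0.28 without shCtrl 3. shCtrl 3 and shDNAJC2 3 each stood with the other group there. COL8A2 had few reads, with 19, 18 and 17 counts in shDNAJC2 libraries, against 31, 29 and 29 counts in shCtrl libraries. That was 0.991, 1.08 and 0.676 CPM in shDNAJC2 libraries, against 1.27, 1.11 and 1.21 CPM in shCtrl libraries. The groups did not overlap, by a narrow gap, and the log2 difference was −0.40 (interval −1.06 to 0.26), as it was without shCtrl 3.

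COL10A1, known from hypertrophic cartilage, was the only tested collagen higher in every knockdown library, but on very few reads. It had 16, 10 and 18 counts in shDNAJC2 1, 2 and 3, against 2, 4 and 11 counts in shCtrl 1, 2 and 3, which is 0.835, 0.598 and 0.716 CPM against 0.0820, 0.153 and 0.460 CPM. The log2 fold change was 1.62 (interval 0.27 to 2.97), and without shCtrl 3 it was 2.55 (adjusted p = 0.0050). Both membrane-spanning collagens that were tested had overlapping groups. COL13A1 was at 33.1, 40.2 and 41.1 CPM in shDNAJC2 libraries, against 33.0, 28.7 and 46.0 CPM in shCtrl libraries (log2 fold change 0.09), and COL17A1, of the hemidesmosome, ranged over 1.03 to 1.73 CPM in shDNAJC2 and 0.697 to 1.67 CPM in shCtrl libraries (0.37). Without shCtrl 3 the log2 fold changes were 0.31 (adjusted p = 0.096) for COL13A1 and 0.87 (adjusted p = 0.066) for COL17A1. COL23A1, COL25A1, COL26A1 and COL28A1 had at most 6 counts in any library. In all, 13 of the 44 genes were left untested over 6 libraries, and the highest count of any of them was 15.

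Counted library by library, 9 of the 31 tested collagens were lower in every knockdown library than in every control and 1 was higher, against 8.43% and 7.33% of all genes. The 9 were COL5A1, COL4A2, COL18A1, COL6A1, COL8A2, COL9A2, COL9A3, COL14A1 and COL16A1, of which 1 was fibrillar, 2 were of basement membranes and 6 were others. Within the control group, shCtrl 3 was more than 2-fold below the mean of shCtrl 1 and 2 for 8 of the 31 and more than 2-fold above it for 3, against 7.56% and 6.61% of all genes. The 8 included 6 of the 10 tested fibrillar genes. Set against shCtrl 3 alone, the knockdown mean was more than 2-fold away for none of the 31, against 0.2% of all genes below and 0.357% above, and all 3 knockdown libraries lay below shCtrl 3 for 15 collagens and above it for 2, against 29.8% and 28.3% of all genes. shCtrl 3 was nearer to the knockdown mean than to the other controls for 9 of 10 fibrillar, 4 of 7 basement membrane and 9 of 14 other genes, against 74.6% of all genes. Between single libraries, 13 of the 31 differed more than 2-fold between shDNAJC2 1 and shCtrl 1 and 10 between shCtrl 1 and shCtrl 3, against 14.9% of all genes in each pair. None did between shDNAJC2 2 and shCtrl 3 or between shCtrl 1 and shCtrl 2, where 0.558% and 0.343% of all genes did.

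The GC content of the transcript moved with some of these differences. Tested collagens had a median GC content of 55.9%, against 48.5% for all genes tested. With the GC trend of each library removed, the median log2 fold change was −1.03 for fibrillar, −0.02 for basement membrane and −0.06 for other genes. The fibrillar median thus kept its size, and the small medians of the other classes lay near 0. COL1A1 was then at −1.29, COL1A2 at −1.58, COL3A1 at −2.19, COL5A1 at −0.84 and COL16A1 at −0.53. The part of sequencing or amplification in the GC trend was not tested.

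**Figure D5:**
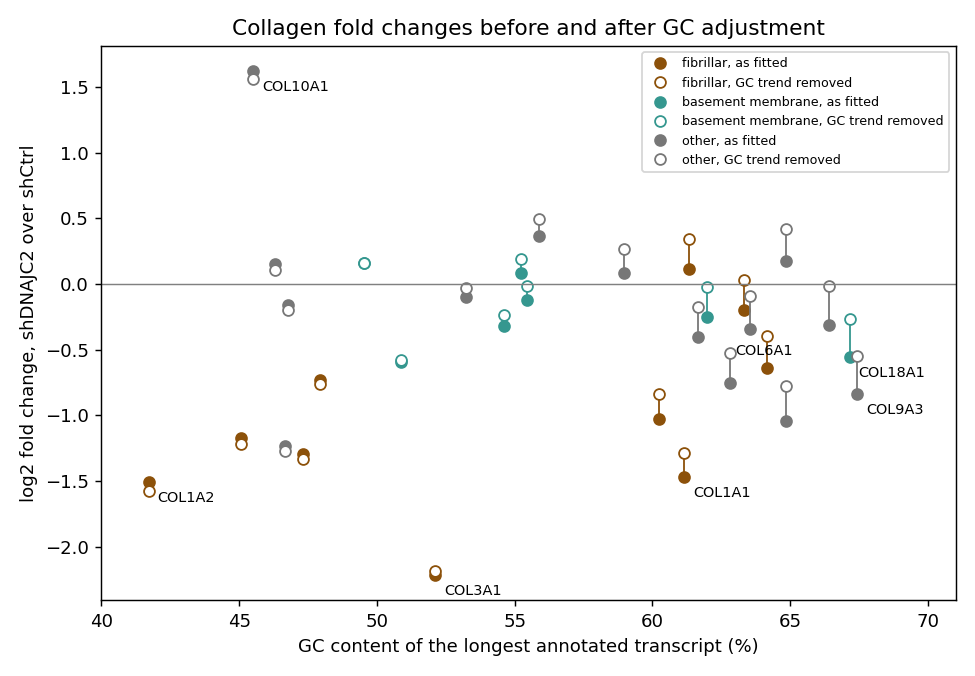
Log2 fold change of shDNAJC2 over shCtrl (y axis, edgeR, all 6 libraries) against the GC content of the longest annotated transcript (x axis, %) for the 31 tested collagen genes, coloured by class. Filled circles are values as fitted and open circles those with the GC trend of each library removed. COL1A2 and COL3A1 hardly move, and GC-rich genes move upward, COL18A1 from below toward 0 and COL7A1 and COL27A1 farther above it.

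Of the genes that act with the collagens, in 6 lists, edgeR called none over all 6 libraries. Without shCtrl 3 the counts below stand against 17% of all genes lower and 17.8% higher, and several are near those shares. Of 23 genes for modification and folding, 6 rose and 3 fell without shCtrl 3, and of 12 tested genes for propeptide cleavage and crosslinking 2 rose and 7 fell. Collagen receptors had 3 that rose and 1 that fell of 9 tested, basement membrane partners 3 and 7 of 15, fibril partners 0 and 4 of 10, and genes of TGF-beta input 2 and 3 of 12. Median log2 fold changes over 6 libraries were −0.04, −0.41, 0.15, −0.15, −0.18 and 0.10 for these lists in that order.

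CREB3L1, a membrane-bound transcription factor known to drive type I collagen genes in bone, was at 86.9, 101 and 87.0 CPM in shDNAJC2 1, 2 and 3, against 144, 152 and 122 CPM in shCtrl 1, 2 and 3. All 3 controls, shCtrl 3 included, lay above the knockdown libraries, and the log2 difference was −0.60 (95% interval −0.90 to −0.31). PLOD2, a lysyl hydroxylase, was at 186, 146 and 137.50 CPM in the shDNAJC2 libraries, against 83.3, 83.2 and 137.45 CPM in shCtrl libraries (0.63), and TMEM38B, a channel of the endoplasmic reticulum, had a log2 fold change of 0.41. For propeptides, PCOLCE, which speeds removal of the end piece of type I, was at 130, 143 and 133 CPM in shDNAJC2 libraries, against 174, 195 and 178 CPM in shCtrl libraries (−0.43). The proteinase genes ADAMTS2 and BMP1, which cut the ends of fibrillar collagens, had log2 fold changes of −0.84 and −0.39. For none of these genes did the groups overlap, though for PLOD2 shDNAJC2 3 and shCtrl 3 were nearly equal. Over all genes tested, 8.43% were lower and 7.33% higher without overlap. The genes here were picked by small p, which favours separate groups, so their lack of overlap adds nothing to that choice.

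The collagen receptor genes with the smallest p were DDR1 (−0.59), MRC2 (−0.34) and ITGA2 (0.32), again without overlap. ITGA2, an integrin chain that binds collagen, was at 497, 459 and 533 CPM in shDNAJC2 libraries, against 382, 384 and 425 CPM in shCtrl libraries. In the basement membrane list LAMA5 (−0.54), HSPG2 (−1.01) and AGRN (−0.68) led, and HSPG2, the perlecan gene, was at 45.3, 53.9 and 76.4 CPM in shDNAJC2 libraries, against 139, 140 and 75.5 CPM in shCtrl libraries. TGFBI (−0.49), VCAN (−1.37) and POSTN (−0.93) led the fibril partners. VCAN, the proteoglycan versican, was at 48.8, 45.2 and 67.5 CPM in shDNAJC2 libraries, against 183, 193 and 41.7 CPM in shCtrl libraries, so that shCtrl 3 was the lowest library. TGFBR1 (0.39), TGFB1 (−0.34) and TGFB2 (−0.63) led the TGF-beta genes, and TGFB1 was at 148, 168 and 165 CPM in shDNAJC2 libraries, against 200, 206 and 203 CPM in shCtrl libraries. For TGFB1 the 3 controls lay within a narrow range above the knockdown libraries. These genes were named for their small p in these libraries, so their values are a description.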

How the data were processed

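Per the labels' protocols, mRNA-enriched RNA of ACHN cells went into 6 Illumina libraries read from both ends. The authors deposited gene-level read counts without normalization, with 1 column per library named as its title. The build was GRCh38, per the submitters' processing notes, and the aligner, counting program and strand setting are not given in the sources used here. The test of shDNAJC2 against shCtrl was that of edgeR 4.0.16 run under R 4.3.3 (quasi-likelihood F test, two-sided, TMM factors, filterByExpr, Benjamini-Hochberg over all genes tested, threshold 0.05), fitted on the whole table. DESeq2 1.42.0 and limma-voom (limma 3.58.1), other filters and size factors, a replicate block, a GC correction (lowess span 0.3) and leaving out libraries were alternatives. Log2 CPM used a prior count of 2, and library-to-library log2 differences are on that scale, except the plot by library, which adds 0.1 CPM. Transcript length, GC content and gene positions came from GENCODE 29 for 20255 of 20532 genes, using the longest transcript. Counting intervals and the limit of 3 counts cover counting error only. The fits were also run on simulated counts, in which no library stood apart from its group. That run therefore does not bear on the effect of shCtrl 3.

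Values are given by library for collagens with a mean of at least 5 CPM, an unadjusted p under 0.05 or no overlap between groups, 26 in all. The 3 members with the smallest p in each of 6 pathway lists have a fold change, and some of them also values by library. SLC19A1 was named after its values were seen. The members and lists were chosen with earlier results of these data known. Replicate numbers were not used to pair the libraries in the main fit. Same-numbered libraries had residual correlations of −0.38, −0.52 and −0.66. Because shCtrl 3 and shDNAJC2 3 stood apart from their groups, these correlations cannot show whether the numbers pair the libraries. A renal marker of the list is not reported here and was left out of its sum.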

Additional observations from a re-analysis of the deposited data

How the results depend on the processing

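Over all 6 libraries edgeR called 0 genes and 0 collagens with either other filter, with DESeq2's size factors and with the GC trend removed, as did limma-voom. DESeq2 called 35 genes and 1 collagen. Leaving out 1 library at a time gave 0 to 4945 genes and 0 to 17 collagens, and only leaving out shCtrl 3 gave calls. Without shCtrl 3 and shDNAJC2 3, a setting chosen after seeing the data, 8687 genes and 23 collagens were called. The fibrillar median log2 fold change ran from −1.40 to −0.88 with 1 library left out (−1.40 without shCtrl 3, −1.33 without shDNAJC2 3, −0.88 without shCtrl 1) and was −1.69 without both. With the GC trend removed the medians of basement membrane and other genes were −0.0218 and −0.0611. The replicate block gave 0 calls and a fibrillar median of −1.04, and whether the numbers pair the libraries is not known. Of 364 alternative values for the 26 genes given by library, 322 kept direction and were not called. Another 35 became called in the same direction and 7 changed sign. The 322 include DESeq2 values that had no adjusted p and could not be called. These are the values of COL15A1, COL14A1, COL9A2, COL5A3, COL9A3, COL8A2 and COL10A1. COL7A1 changed sign without shDNAJC2 3 (−0.29) and without both libraries (−0.26, where it was called, adjusted p = 0.018). COL27A1 did so without shCtrl 1 (−0.0058) and without shCtrl 2 (−0.0905). The rest were COL15A1 without shCtrl 1 (−0.0017), COL13A1 without shCtrl 2 (−0.0399) and COL6A3 without both (0.0296). Other settings kept the sign of the main fit, with COL7A1 at 0.43 without shDNAJC2 1 and COL15A1 at 0.17 without shCtrl 2. Without shCtrl 3, COL27A1 was at 0.56 and COL13A1 at 0.31. The cause of the sign changes was not tested. With 3 libraries against 3, an exact permutation test of 1 gene cannot go below p = 0.1.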
